A study of Mus musculus with 6 samples.

Results

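The genes described here are 58 genes of cell division, listed by name for their part in building the mitotic spindle, attaching chromosomes to it, checking that attachment and splitting the cell. All 58 were found among the 35527 mouse genes whose transcripts could be summed, and all 58 were among the 15805 genes with enough reads to test. They lie on 17 chromosomes, with at most 9 of them on one chromosome. They were chosen by name and not by a measured value, although with earlier results of these data known.

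The samples were whole pancreas from mice 1 day old on the C57BL/6 strain, profiled by bulk RNA sequencing of polyadenylated RNA with a strand-preserving kit. The 3 KO libraries came from mice lacking the microRNA gene Mir216a (miR-216a-/-), and the 3 WT libraries from wild type mice of the same strain and age. Each library carries its own donor number in the labels, and the labels give neither sex nor litter. Because a whole organ was sequenced, fewer dividing cells and less of these RNAs in each dividing cell cannot be told apart.

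Cells make most of these RNAs in G2 and mitosis and stop when division ends, so that in a tissue they are read as a trace of cells in cycle. Entry into mitosis is driven by Cdk1 with A and B cyclins. Aurora and Polo kinases and motor kinesins then build the spindle, the kinetochore ties each chromosome to microtubules, and the checkpoint kinases hold back the anaphase-promoting complex until every chromosome is tied. The newborn mouse pancreas still grows by division of its acinar, ductal and endocrine cells. Transcription of this group in G2 is known to run through promoter sites called the CHR (cell cycle genes homology region), read by the MuvB complex with B-Myb and FoxM1, often beside CCAAT boxes read by NF-Y.

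The promoter sequences show these sites in 4 of the genes, picked as those with the smallest p among the genes that hold both motifs. Each window, from RefSeq on build GRCm38.p6, runs from 250 bases before the annotated start site to 50 bases after it, 5′ to 3′ on the gene's strand, with CHR letters (TTTGAA here) and CCAAT boxes (CCAAT, or ATTGG on the other strand) in capitals.
Espl1, chr15:102296043-102296342, plus strand: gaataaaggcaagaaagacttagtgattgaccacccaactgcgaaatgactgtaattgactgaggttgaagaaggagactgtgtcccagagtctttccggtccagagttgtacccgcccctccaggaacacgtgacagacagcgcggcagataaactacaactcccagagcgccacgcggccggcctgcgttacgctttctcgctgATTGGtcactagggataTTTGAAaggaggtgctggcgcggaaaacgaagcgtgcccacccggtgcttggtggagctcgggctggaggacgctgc
Kif18b, chr11:102925075-102925374, minus strand: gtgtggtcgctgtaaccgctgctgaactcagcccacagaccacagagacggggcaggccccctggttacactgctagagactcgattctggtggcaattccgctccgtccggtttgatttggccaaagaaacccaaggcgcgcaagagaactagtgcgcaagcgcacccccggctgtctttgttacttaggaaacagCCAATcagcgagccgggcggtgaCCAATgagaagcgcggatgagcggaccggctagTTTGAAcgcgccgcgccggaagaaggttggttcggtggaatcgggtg
Spc25, chr2:69206164-69206463, minus strand: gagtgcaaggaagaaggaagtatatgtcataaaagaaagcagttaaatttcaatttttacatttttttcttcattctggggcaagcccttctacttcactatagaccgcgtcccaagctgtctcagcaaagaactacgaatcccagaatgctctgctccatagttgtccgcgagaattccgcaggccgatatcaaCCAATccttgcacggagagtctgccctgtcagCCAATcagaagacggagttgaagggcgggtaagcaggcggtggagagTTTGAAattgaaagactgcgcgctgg
Cdk1, chr10:69352863-69353162, minus strand: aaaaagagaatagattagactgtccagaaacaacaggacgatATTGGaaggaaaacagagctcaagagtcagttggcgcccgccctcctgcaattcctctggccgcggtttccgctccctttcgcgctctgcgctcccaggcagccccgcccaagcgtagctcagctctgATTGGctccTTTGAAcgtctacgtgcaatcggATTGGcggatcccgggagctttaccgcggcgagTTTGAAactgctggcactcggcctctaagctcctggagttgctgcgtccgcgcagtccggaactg
In Espl1 the CCAAT box began 44 bases before the start site and the CHR letters 27 bases before it. In Kif18b and Spc25 a pair of CCAAT boxes lay upstream and the CHR letters began at base 4 and base 25 after the start. The Cdk1 window held 2 CHR matches, at 71 and 15 bases before the start, and 3 CCAAT boxes.
The microRNA missing in the KO mice, mmu-miR-216a-5p, is encoded at chr11:28757018-28757039 on the plus strand and is printed with its seed, bases 2 to 8, in capitals.
mmu-miR-216a-5p: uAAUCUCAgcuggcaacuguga

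The libraries held between 20565387 and 23028718 estimated reads each. Levels are given as CPM, read counts brought to a common library total after library sizes were rescaled by the trimmed mean of M values (TMM), and differences as the log2 of KO over WT with its standard error (SE). The hairpin of Mir216a (chromosome 11, 28757012 to 28757083) was in the transcript list of 0 of the 6 libraries, so the deletion could not be read from these values. All 11 acinar markers were detected, and together they took 23.4%, 26.0% and 25.7% of the reads in KO 1 to 3 and 22.8%, 19.6% and 24.3% in WT 1 to 3. KO 1 stood apart in its Y-linked RNA, at 3.82 CPM summed over 4 genes, against 189 and 194 CPM in KO 2 and KO 3 and 147, 171 and 157 CPM in WT 1 to 3. Erythroid RNA, summed over the 13 genes found of 14 listed, was 1709, 4820 and 1798 CPM in KO 1 to 3 and 5954, 2713 and 2843 CPM in WT 1 to 3, so that KO 2 and WT 1 lay above the other 4 libraries. WT 1 also held more liver and intestine RNA, at 566 CPM against 179 to 238 CPM in the other libraries. Mesenchyme RNA was lowest in KO 2, at 6829 CPM against 10647 to 13013 CPM in the others.

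The mitotic genes were lower in KO pancreas almost as a block. The mean level in KO was below that in WT for 57 of the 58, with Pttg1 as the exception, and the median gene stood at 44.3% of its WT level. The median log2 fold change was -1.18, against 0.01 over all 15805 tested genes, and single genes ran from -1.60 for Cenpm to 0.01 for Pttg1. In 49 of the 58 genes the KO mean was at most 50% of the WT mean. Summed over the list, the genes took 1592, 758 and 619 CPM in KO 1 to 3, against 1993, 2136 and 2431 CPM in WT 1 to 3, with no overlap of the groups.

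By edgeR's quasi-likelihood test with Benjamini-Hochberg adjustment none of the 58 genes passed an adjusted p of 0.05, and neither did any other gene, 0 of 15805 (0%). The smallest adjusted p over all genes was 0.205. At an unadjusted p under 0.05, 54 of the 58 genes were lower and 0 higher, where 7.00% of all tested genes were lower (1107 genes, with 889 higher). In 54 of the 58 all KO values were under all WT values, a pattern held by 10.3% of all tested genes. DESeq2's Wald test on the same counts called 36 of the 58 lower at an adjusted p under 0.05, beside 1.85% of all genes (292 lower, with 127 higher), while limma-voom called 0 of the 58 and 1 gene in each direction overall.

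One library set much of the spread. KO 1 was the highest of the 3 KO libraries in 57 of the 58 genes, yet it lay below every WT library in 54. On the log2 scale the SD among KO libraries exceeded that among WT libraries for 57 of the 58 genes, with medians of 0.79 and 0.15. Without KO 1, edgeR called 56 of the 58 genes lower at an adjusted p under 0.05, beside 1.71% of the 16091 genes then tested (275 lower, with 87 higher), and the median log2 fold change was -1.74. Bub3 (adjusted p = 0.118) and Pttg1 (adjusted p = 0.937) were the exceptions. This fit takes away the highest KO library of 57 of the 58 genes, which by itself widens the difference. With any other single library left out edgeR called 0 of the 58. KO 1 is also the library with little Y-linked RNA, and the part of that in its higher mitotic levels was not tested. Leaving out the erythroid-rich KO 2 and WT 1 together left 31 of the 58 genes at an unadjusted p under 0.05, with a median log2 fold change of -1.06. The share of all tested genes at that p was not taken in this fit, so the count has no background beside it.

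**Figure D1:**
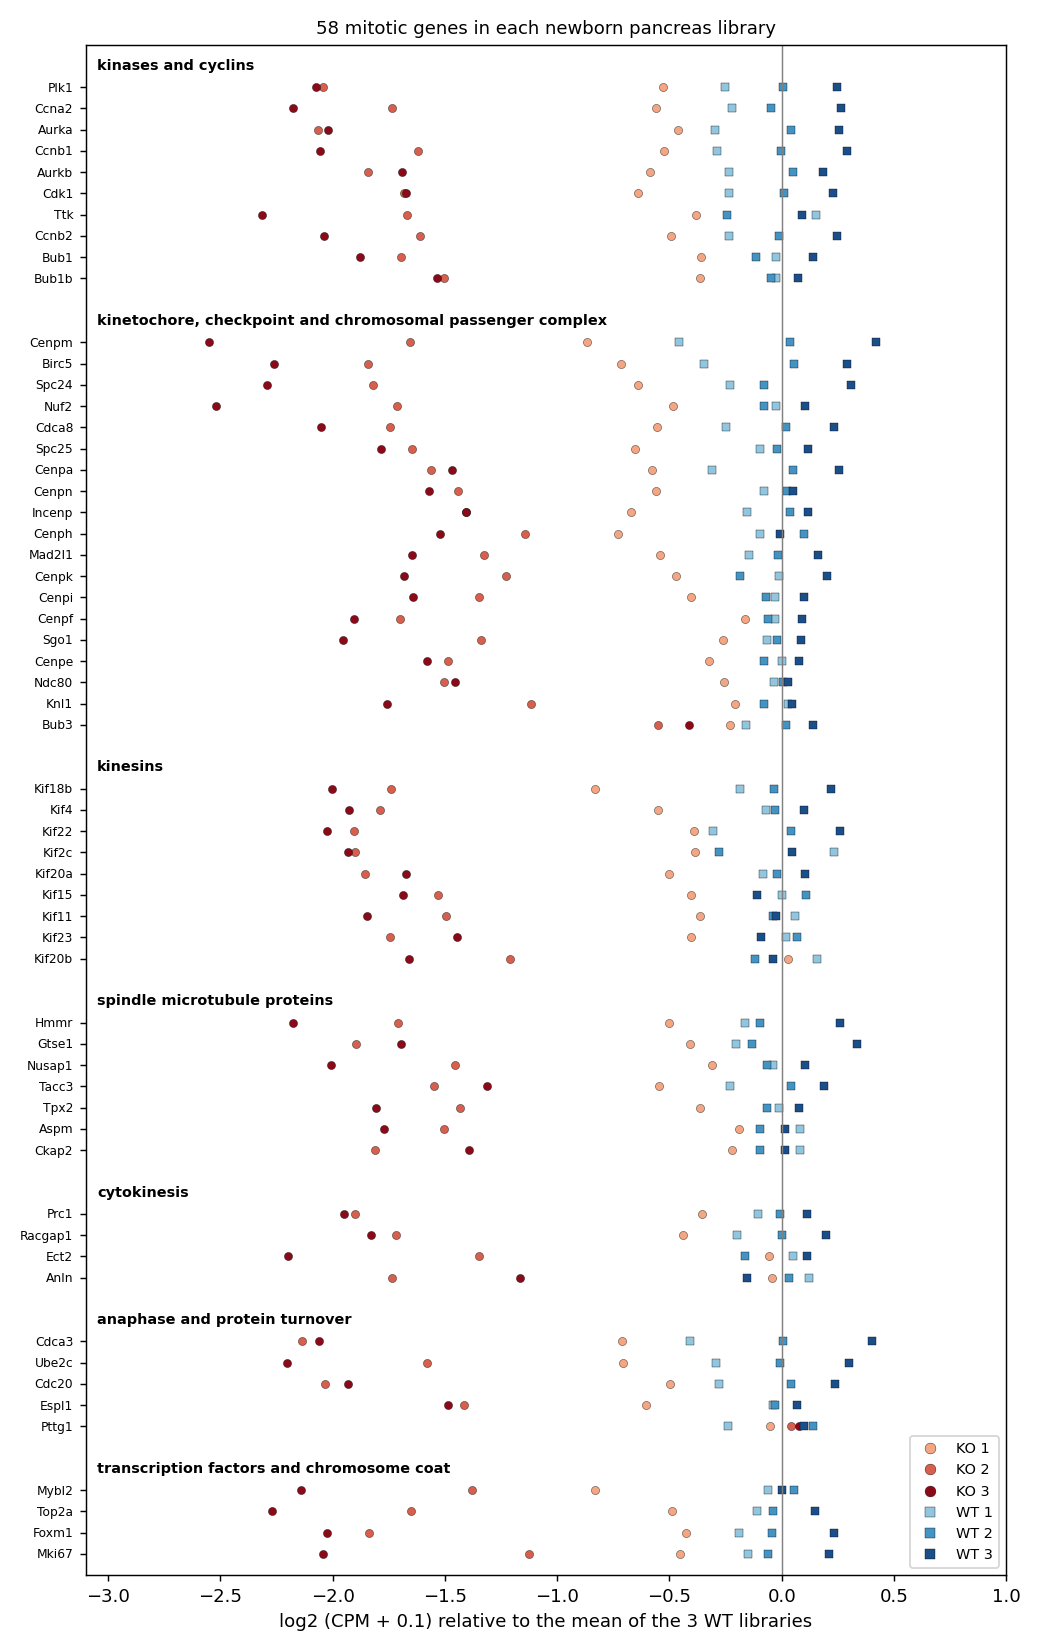
Level of each of the 58 genes in each library, as log2 (CPM + 0.1) minus the mean of the 3 WT libraries (x axis), with genes in rows grouped by role; circles are the KO libraries and squares the WT libraries. KO 2 and KO 3 lie to the left of WT for 57 genes, KO 1 lies between them and WT for nearly all, and Pttg1 shows no separation.

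The 10 kinases and cyclins drive entry into mitosis and police the spindle. All 10 had every KO library below every WT library (10.3% of all tested genes). Their median log2 fold change was -1.27. Cdk1, the kinase that starts mitosis, had 34.0, 16.4 and 16.5 CPM in KO 1 to 3 and 44.9, 53.3 and 61.9 CPM in WT 1 to 3. The KO libraries all lay below the WT libraries, with KO 1 nearest to them, and the log2 fold change was -1.26 ± 0.28 (SE; edgeR adjusted p = 0.206). Aurkb, the Aurora kinase of the chromosomal passenger complex, had 18.3, 7.62 and 8.47 CPM in KO 1 to 3 and 23.4, 28.5 and 31.4 CPM in WT 1 to 3. Again the groups were apart, at -1.28 ± 0.32 (SE; edgeR adjusted p = 0.217). Ccna2, the A-type cyclin of S phase and G2, had 51.3, 22.7 and 16.7 CPM in KO 1 to 3 and 65.1, 73.3 and 91.1 CPM in WT 1 to 3, a log2 fold change of -1.34 ± 0.37 (SE). Ttk, the checkpoint kinase Mps1, had the largest p of the 10 and still did not overlap, at 8.95, 3.61 and 2.27 CPM in KO 1 to 3 and 13.0, 9.86 and 12.4 CPM in WT 1 to 3. The other 6, the B-type cyclins Ccnb1 and Ccnb2, the kinases Aurka, Plk1 and Bub1 and the kinase-related checkpoint protein Bub1b, had log2 fold changes from -1.38 for Plk1 to -1.03 for Bub1b. DESeq2 called 8 of the 10 lower (1.85% of all tested genes), and edgeR without KO 1 all 10 (1.71% of all genes then tested).

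The kinetochore, checkpoint and chromosomal passenger genes were the largest group, 19 genes with a median log2 fold change of -1.11, and all 19 had groups that did not overlap. Incenp, the scaffold of the passenger complex that holds Aurora B at centromeres, had the smallest p of the 58. Its level was 36.0, 21.6 and 21.6 CPM in KO 1 to 3 and 51.5, 59.0 and 62.2 CPM in WT 1 to 3, so every KO library was well under the lowest WT library. The log2 fold change was -1.12 ± 0.20 (SE; edgeR adjusted p = 0.205, DESeq2 adjusted p = 5.57e-05). Cenph, a protein of the inner kinetochore, had 6.74, 5.03 and 3.85 CPM in KO 1 to 3 and 10.5, 12.1 and 11.2 CPM in WT 1 to 3, with KO 1 closer to the other KO libraries than in most of the list. Spc25, a subunit of the Ndc80 complex that grips microtubules, had 20.5, 10.3 and 9.32 CPM in KO 1 to 3 and 30.3, 31.9 and 35.0 CPM in WT 1 to 3, at -1.28 ± 0.28 (SE; edgeR adjusted p = 0.205). The other Ndc80 complex subunits stood alongside, at log2 fold changes of -0.96 for Ndc80, -1.34 for Nuf2 and -1.44 for Spc24.

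Cenpf, a large outer kinetochore protein, had the largest p of the group. It had 57.8, 19.9 and 17.2 CPM in KO 1 to 3 and 63.4, 62.1 and 69.0 CPM in WT 1 to 3, with KO 1 close under WT 2. Cenpm, of the inner kinetochore, showed the most negative log2 fold change of the 58, -1.60 ± 0.41 (SE), and Birc5 (survivin, of the passenger complex) the next of this group, -1.48 ± 0.37 (SE). Bub3, a checkpoint protein that binds Bub1 and Bub1b and also serves outside mitosis, differed least. It had 39.5, 31.6 and 34.9 CPM in KO 1 to 3 and 41.6, 47.0 and 51.1 CPM in WT 1 to 3, groups that were apart by the narrow gap between KO 1 and WT 1. Its log2 fold change was -0.40 ± 0.12 (SE; edgeR adjusted p = 0.258). The remaining members, among them the motor Cenpe, the centromeric histone Cenpa, the scaffold Knl1, the cohesin guard Sgo1 and the checkpoint protein Mad2l1, ran from -0.89 for Knl1 to -1.32 for the passenger protein Cdca8. DESeq2 called 13 of the 19 lower (1.85% of all tested genes), and edgeR without KO 1 called 18, all but Bub3 (1.71% of all genes then tested).

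Of the 9 kinesins, the motors that slide and shorten spindle microtubules, 8 had groups that did not overlap, and the median log2 fold change was -1.22. Kif18b, which shortens astral microtubules, had 7.73, 4.07 and 3.38 CPM in KO 1 to 3 and 12.1, 13.5 and 16.1 CPM in WT 1 to 3, a clean separation at -1.46 ± 0.30 (SE; edgeR adjusted p = 0.205). Kif4, a motor of chromosome arms and the central spindle, had 16.8, 7.06 and 6.41 CPM in KO 1 to 3 and 23.5, 24.2 and 26.4 CPM in WT 1 to 3. Kif20a, a motor of the central spindle needed for cytokinesis, had 23.3, 9.05 and 10.3 CPM in KO 1 to 3 and 31.1, 32.5 and 35.4 CPM in WT 1 to 3. Both were apart in every library, at -1.29 ± 0.34 and -1.22 ± 0.32 (SE). Kif20b, also of the central spindle, overlapped. It had 22.9, 9.66 and 7.06 CPM in KO 1 to 3 and 25.1, 20.7 and 21.9 CPM in WT 1 to 3, with KO 1 above WT 2 and WT 3 (log2 fold change -0.77 ± 0.38, SE; edgeR adjusted p = 0.463). The bipolar motor Kif11, Kif15, Kif22, the depolymerase Kif2c and the cytokinesis motor Kif23 ran from -1.08 for Kif23 to -1.26 for Kif22.

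All 7 spindle microtubule proteins had every KO library below every WT library (10.3% of all tested genes), with a median log2 fold change of -1.08. Tacc3, which bridges kinetochore microtubules, had 30.9, 15.3 and 18.1 CPM in KO 1 to 3 and 38.5, 46.4 and 51.4 CPM in WT 1 to 3, at -1.08 ± 0.25 (SE; edgeR adjusted p = 0.206). Hmmr, a spindle pole protein, had 22.6, 9.76 and 7.01 CPM in KO 1 to 3 and 28.7, 30.0 and 38.4 CPM in WT 1 to 3. Tpx2, which activates Aurora A on microtubules, had 35.3, 16.8 and 13.0 CPM in KO 1 to 3 and 45.2, 43.5 and 48.0 CPM in WT 1 to 3. Aspm, a spindle pole protein known from its role in brain size, had the largest p of the 7, with 24.7, 9.86 and 8.17 CPM in KO 1 to 3 and 29.8, 26.3 and 28.5 CPM in WT 1 to 3, KO 1 sitting just under WT 2. Nusap1, Ckap2 and Gtse1 were at -1.09, -0.98 and -1.21.

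The 4 cytokinesis genes were the group in which KO 1 came closest to WT, and 2 of the 4 overlapped. The other 2 had every KO library below every WT library (10.3% of all tested genes). Racgap1, a subunit of the centralspindlin complex, had 39.9, 16.4 and 15.1 CPM in KO 1 to 3 and 47.1, 54.2 and 62.0 CPM in WT 1 to 3. Prc1, which bundles the central spindle, had 37.7, 12.9 and 12.4 CPM in KO 1 to 3 and 44.9, 48.0 and 52.3 CPM in WT 1 to 3, so both of these genes kept every KO library below WT. Anln, the anillin of the contractile ring, had 34.3, 10.6 and 15.7 CPM in KO 1 to 3 and 38.5, 36.2 and 31.9 CPM in WT 1 to 3, with KO 1 inside the WT range (log2 fold change -0.81 ± 0.37, SE; edgeR adjusted p = 0.418). Ect2, an exchange factor needed to form the cleavage furrow, had 21.3, 8.64 and 4.75 CPM in KO 1 to 3 and 22.9, 19.8 and 24.0 CPM in WT 1 to 3, again with KO 1 among the WT libraries (-0.94 ± 0.45, SE; edgeR adjusted p = 0.447). DESeq2 called 0 of the 4 (1.85% of all tested genes were lower). In edgeR 2 of the 4 were lower at an unadjusted p under 0.05 (7.00% of all tested genes). Without KO 1, the KO library nearest to WT here, edgeR called all 4 lower (1.71% of all genes then tested).

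The genes of anaphase and protein turnover split. Espl1, the separase that cuts cohesin, had 17.1, 9.71 and 9.24 CPM in KO 1 to 3 and 25.4, 25.5 and 27.3 CPM in WT 1 to 3, at -1.12 ± 0.23 (SE; edgeR adjusted p = 0.205). Ube2c, the ubiquitin-conjugating enzyme of the anaphase-promoting complex, had 23.7, 12.9 and 8.34 CPM in KO 1 to 3 and 31.6, 38.6 and 47.7 CPM in WT 1 to 3. Cdca3, a trigger of mitotic entry through turnover of Wee1, had 21.4, 7.93 and 8.34 CPM in KO 1 to 3 and 26.4, 35.4 and 46.5 CPM in WT 1 to 3. These 3 and Cdc20, the activator of the anaphase-promoting complex (log2 fold change -1.33), had every KO library below every WT library (10.3% of all tested genes).

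Pttg1, the securin that holds separase inactive until anaphase, was the one gene of the 58 with no difference to be seen. It had 8.90, 9.50 and 9.75 CPM in KO 1 to 3 and 7.82, 10.2 and 9.92 CPM in WT 1 to 3, and every KO library lay inside the WT range. The KO mean was 9.39 ± 0.44 CPM and the WT mean 9.31 ± 1.30 CPM (SD, n = 3 each), and the log2 fold change was 0.01 ± 0.15 (SE; edgeR adjusted p = 0.983). Its sign changed with the scaling, to -0.01 with upper-quartile factors. Securin and separase act as a pair, and Espl1 stood at -1.12 in the same libraries; that difference between the genes was not tested.

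The 4 regulators and chromosome proteins completed the list, all with groups that did not overlap and a median log2 fold change of -1.27. Mybl2, the B-Myb that joins MuvB at CHR promoters, had 10.98, 7.47 and 4.36 CPM in KO 1 to 3 and 18.8, 20.4 and 19.7 CPM in WT 1 to 3, at -1.37 ± 0.29 (SE; edgeR adjusted p = 0.205). Foxm1, the forkhead factor that follows it there, had 30.2, 11.3 and 9.92 CPM in KO 1 to 3 and 35.6, 39.5 and 47.8 CPM in WT 1 to 3, at -1.26 ± 0.39 (SE; edgeR adjusted p = 0.261). Both factors, known to act on this group and themselves among the 58, were thus lower in each KO library than in any WT library. The same held for 54 of the 58 genes, and the part of these 2 factors in the other levels was not tested. Top2a, the topoisomerase that untangles sister chromatids, had 128, 57.1 and 37.2 CPM in KO 1 to 3 and 166, 175 and 199 CPM in WT 1 to 3. Mki67, the surfactant-like coat of mitotic chromosomes used as the Ki-67 proliferation marker, had 210, 131 and 69.4 CPM in KO 1 to 3 and 258, 275 and 331 CPM in WT 1 to 3, so that the KO mean was 137 ± 70.2 CPM and the WT mean 288 ± 38.4 CPM (SD, n = 3 each). KO 1 lay close under WT 1 in Mki67, and the log2 fold change was -1.08 ± 0.34 (SE; edgeR adjusted p = 0.266). DESeq2 called 1 of these 4, Mybl2 (1.85% of all tested genes), and edgeR without KO 1 all 4 (1.71% of all genes then tested).

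The KO libraries stood in the same order for mitotic and replication genes, with different spacing. On the log2 (CPM + 0.1) scale relative to the WT mean, the median of the 58 was -0.47, -1.65 and -1.86 in KO 1 to 3, against -0.10, -0.02 and 0.12 in WT 1 to 3. For 32 DNA replication genes, which act earlier in the cycle, the medians were -0.54, -0.69 and -1.45 in KO 1 to 3 and -0.08, -0.02 and 0.08 in WT 1 to 3. KO 2 thus sat beside KO 3 for mitosis and beside KO 1 for replication. The median ratio of KO 1 to KO 2 was 2.24 over the mitotic genes and 1.21 over the replication genes, and that of KO 2 to KO 3 was 1.14 and 1.60. All 32 replication genes were lower at an unadjusted p under 0.05 (7.00% of all tested genes). The groups did not overlap in 31 of them, against 10.3% of all tested genes with a gap in that direction. These 31 included Gins2 (-1.01 ± 0.19, SE) and Mcm10 (-1.40 ± 0.28, SE). Without KO 1, edgeR called 14 of the 32 lower at an adjusted p under 0.05 (1.71% of all genes then tested). The same fit called 56 of the 58 mitotic genes. KO 1 was the highest KO library in 26 of the 32 and in 57 of the 58. Among the mitotic genes the ratio of KO 2 to KO 3 was highest for Cenpm (1.91), Mki67 (1.89), Ect2 (1.82), Nuf2 (1.77) and Mybl2 (1.71). Cdk1 was at 0.99 and Aurkb at 0.90. These ratios compare single libraries and have no replicate check.

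**Figure D2:**
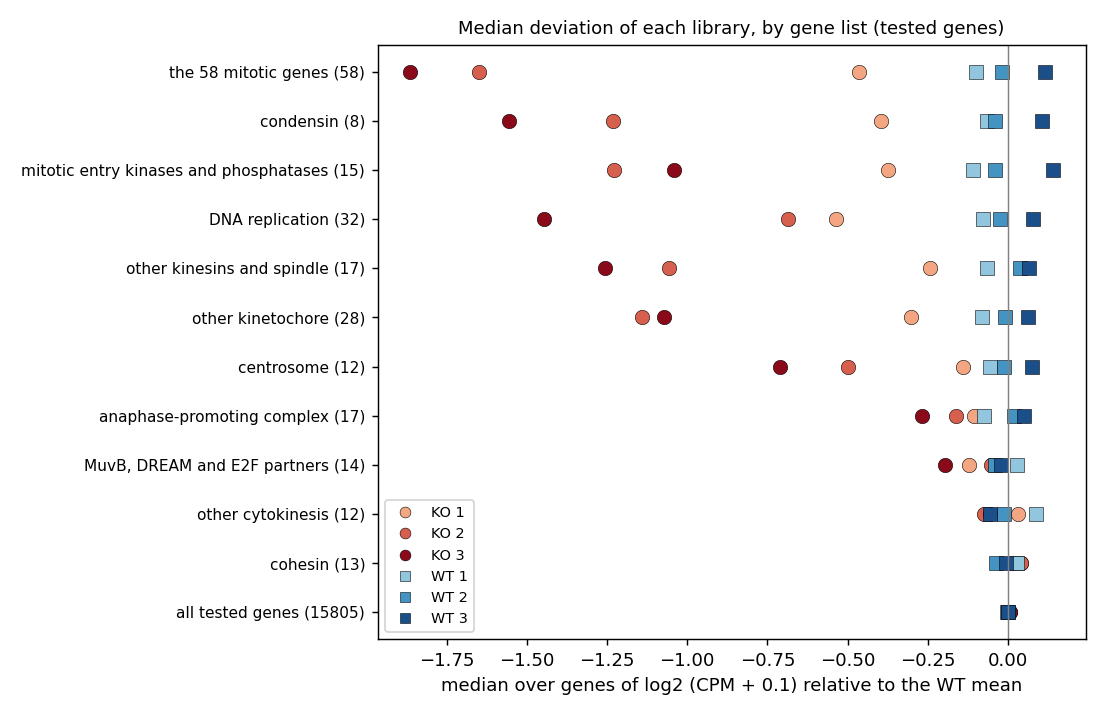
Median over the tested genes of each list of log2 (CPM + 0.1) relative to the WT mean, for each library (x axis), with lists in rows and the number of tested genes in brackets; circles are KO libraries and squares WT libraries. KO 2 and KO 3 lie farthest left in the row of the mitotic genes, KO 2 lies near KO 3 in that row and near KO 1 in the replication row, and cohesin and all tested genes sit near 0.

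Other genes of mitosis, 136 tested in 9 lists, were lower in a graded way, with a median log2 fold change of -0.36. At an unadjusted p under 0.05, 73 of the 136 were lower (53.7%) and 4 higher. Over all tested genes 7.00% were lower at that p, the share to set beside the counts of lower genes that follow. Condensin, which compacts mitotic chromosomes, came nearest to the 58, with 7 of 8 genes lower at that p, all 8 without overlap and a median of -1.03. Its Ncaph2 stood at -0.46 ± 0.11 and Ncapd2 at -1.08 ± 0.27 (SE). Of 15 kinases and phosphatases of mitotic entry 12 were lower (median -0.87), with Pkmyt1, which holds Cdk1 inactive, at -0.87 ± 0.15 and the phosphatase Cdc25c, which activates Cdk1, at -1.19 ± 0.25 (SE). Of 17 other kinesins and spindle proteins 13 were lower (median -0.86). They included the tubulins Tubb5, at 378, 258 and 253 CPM in KO 1 to 3 and 486, 509 and 542 CPM in WT 1 to 3, and Tuba1b, at -0.90 ± 0.19 (SE). Of 28 other kinetochore genes 21 were lower (median -0.74), with Pmf1 of the Mis12 complex at -0.96 ± 0.17 and Cenpq at -1.02 ± 0.20 (SE). Of 12 centrosome genes 6 were lower (median -0.51), with Cep152 at -0.76 ± 0.18 and the gamma-tubulin Tubg1 at -0.70 ± 0.16 (SE).

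The remaining lists had medians nearer to that of all genes. The anaphase-promoting complex had a median of -0.15, with 6 of 17 genes lower (35.3%, against 7.00% of all tested genes) and 8 of 17 without overlap (47.1%, against 10.3%), among them its enzyme Ube2s (-0.68 ± 0.13, SE) and Anapc15 (-0.62 ± 0.13, SE). Cohesin, which holds sister chromatids together and also folds interphase chromosomes, had a median of 0.02, with 4 of 13 genes lower (30.8%) and 2 higher. Its mitotic member Cdca5 (sororin) stood at -1.42 ± 0.33 and its loader Mau2 at 0.35 ± 0.10 (SE). Of 12 other cytokinesis genes 0 were lower and 1 higher, Rock2 at 0.24 ± 0.09 (SE), and Cit, the citron kinase, was at -0.43 ± 0.19 (SE). Subunits and partners of the MuvB, DREAM and E2F complexes had a median of -0.12, with 4 of 14 lower (28.6%), among them Lin9 (-0.62 ± 0.18, SE) and Rbl1 (-0.79 ± 0.23, SE), and 1 higher. No gene named from these lists passed edgeR's adjusted p, the smallest being 0.205.

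Of 11 marker lists for cell types and sex, the beta cell and the endothelial list had summed levels whose groups did not overlap. An exact two-sided permutation test of the summed CPM can reach 0.1 at best with 3 libraries a group, and both lists were at that value (adjusted p = 0.55 over the 11 lists). Beta cell markers, 9 of 9 tested, summed to 4526 ± 172 CPM on average for KO libraries, against 5946 ± 626 CPM for WT libraries (SD, n = 3 each). By the sign of the difference 6 of the 9 single markers were lower and 3 higher in KO. At an unadjusted edgeR p under 0.05, 4 of the 9 were lower (44.4%, against 7.00% of all tested genes) and 0 higher. All KO values were under all WT values in 4 (against 10.3% of all tested genes), and DESeq2 called 4 lower (against 1.85%). The log2 fold changes of the 9 ran from -0.79 to 0.56, with a median of -0.12. Endothelial markers, 12 of 12 tested, summed to 1043 ± 34.6 CPM for KO libraries, against 926 ± 59.0 CPM for WT libraries (SD, n = 3 each). As a share of all counts the endothelial groups overlapped, at 0.104%, 0.0973% and 0.108% in KO 1 to 3 and 0.1005%, 0.0976% and 0.0832% in WT 1 to 3 (exact permutation p = 0.3), while the beta cell groups stayed apart. The erythroid list, of cells that can divide in newborn tissue, averaged 2776 ± 1771 CPM for KO libraries, against 3837 ± 1835 CPM for WT libraries (SD, n = 3 each; exact permutation p = 0.5). With the erythroid level as a covariate the median log2 fold change of the 58 was -1.40. The part of beta cell and endothelial levels in the mitotic values was not tested.

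Per unit of transcript length, in TPM (each transcript's share of all transcripts, scaled by the authors' software for length and depth), the median mitotic gene stood at 7.26 TPM in KO and 14.8 TPM in WT. Counting protein-coding transcripts alone it was 5.56 TPM in KO and 12.05 TPM in WT, a scale chosen after the data were seen, and the levels that follow are on it unless stated, as mean ± SD over 3 libraries. On it Ube2c was the most abundant, at 22.6 ± 13.0 TPM in KO and 57.4 ± 9.27 TPM in WT. Birc5 followed at 17.3 ± 12.5 TPM in KO and 49.8 ± 9.91 TPM in WT, then Cdk1 at 18.3 ± 10.3 TPM in KO and 43.5 ± 6.26 TPM in WT and Top2a at 15.8 ± 11.1 TPM in KO and 37.4 ± 2.64 TPM in WT. Over all transcripts the order at the top was another, with Top2a first at 28.8 ± 20.0 TPM in KO and 72.4 ± 5.99 TPM in WT, Cdk1 next at 31.03 ± 11.99 TPM in KO and 68.1 ± 7.97 TPM in WT, and Ube2c after them. On the protein-coding scale the levels of these neighbours in the order lay within their SDs of each other in WT, and more so in KO. At the low end were Knl1 (2.23 ± 1.19 TPM in KO and 3.85 ± 0.08 TPM in WT), Sgo1 (1.92 ± 1.29 TPM in KO and 3.82 ± 0.22 TPM in WT) and Aspm (1.78 ± 1.20 TPM in KO and 3.55 ± 0.24 TPM in WT), which did not differ from each other beyond their SDs in KO. Pttg1, a middling gene in WT at 16.3 ± 1.83 TPM, was at 16.7 ± 0.96 TPM in KO, among the most abundant of the list there. For a few genes most of the TPM came from transcripts annotated as not coding for protein, since only 17.6% of the WT level of Cenpa and 32.7% of that of Kif23 came from protein-coding ones, so their places in the order are uncertain.

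**Figure D3:**
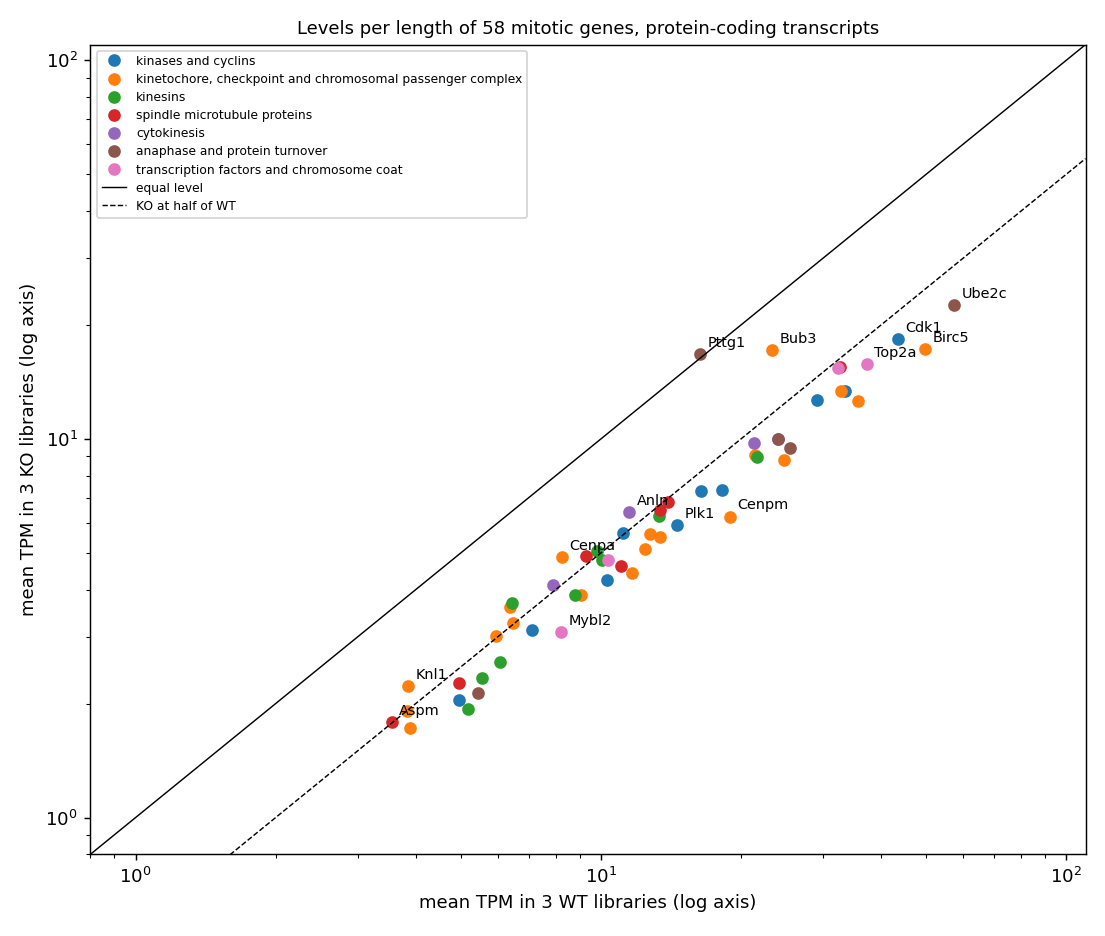
Mean TPM over protein-coding transcripts in the 3 KO libraries (y axis) against the 3 WT libraries (x axis), both on log axes, 1 point per gene coloured by role; the solid line is equal level and the dashed line a KO level at 50% of WT. Most points gather about or under the dashed line over the whole range of levels, with Bub3 above it and Pttg1 on the line of equal level.

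What the genes share in sequence was described from the 51 of 58 with a window in the RefSeq promoter table (57 windows, since some genes have several starts). CHR letters were searched on both strands as the common form TTTGAA, the variant form TTCGAA and a further variant form TTTAAA. They were in the windows of 42 of these 51 genes, 82.4% (exact Clopper-Pearson interval 69.1 to 91.6%), against 25.1% of 11790 other tested genes and 31.9% of all 27025 genes in the table. Counted per window it was 28.8% of all 32851 windows. The form TTTGAA alone was in 68.6% of the 51 and 14.8% of the other tested genes (20.2% of all genes in the table). The CCAAT box, searched as CCAAT on both strands, was in 74.5% (interval 60.4 to 85.7%) and 42.4%, with 41.1% of all genes in the table. Both motifs together were in 68.6% of the 51 and 10.1% of the others (12.8% of all genes in the table). E2F letters, TTGGCGC or TTCGCGC on both strands, which can overlap a CCAAT box read as ATTGG, were in 11.8% (interval 4.44 to 23.9%) and 7.46% (4.47% of all genes in the table).

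The matches also gathered at set distances. CHR letters began within the 50 bases after the start site in 45.6% of the windows of the mitotic genes and 2.27% of those of other tested genes, and within the 50 bases before it in 28.1% and 3.42%. CCAAT boxes began farther upstream, 50 to 100 bases before the start in 42.1% and 14.5% of the windows, and within 50 bases before it in 45.6% and 10.2%. The 9 genes without CHR letters in the window (Mad2l1, Cenph, Cenpi, Cenpk, Nuf2, Nusap1, Tacc3, Pttg1 and Mybl2) had a median log2 fold change of -1.09, beside -1.20 for the 42 with them. The window of Pttg1, chosen for printing after its values were seen, held none of the CHR, CCAAT or E2F letters. It lies wholly inside the GENCODE M21 span of the gene, whose 5′ end is at base 43426251. The printed window thus does not cover the sequence upstream of that end, and a lack of sites there cannot be read from it.
Pttg1, chr11:43425932-43426231, minus strand: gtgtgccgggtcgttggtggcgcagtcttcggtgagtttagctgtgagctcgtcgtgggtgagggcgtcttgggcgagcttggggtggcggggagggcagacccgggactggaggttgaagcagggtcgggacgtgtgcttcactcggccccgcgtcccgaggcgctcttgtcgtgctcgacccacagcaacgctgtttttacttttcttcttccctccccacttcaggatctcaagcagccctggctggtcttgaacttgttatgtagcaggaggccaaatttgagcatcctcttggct
These are matches of letters in one annotated window per start and say nothing of what binds there.

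**Figure D4:**
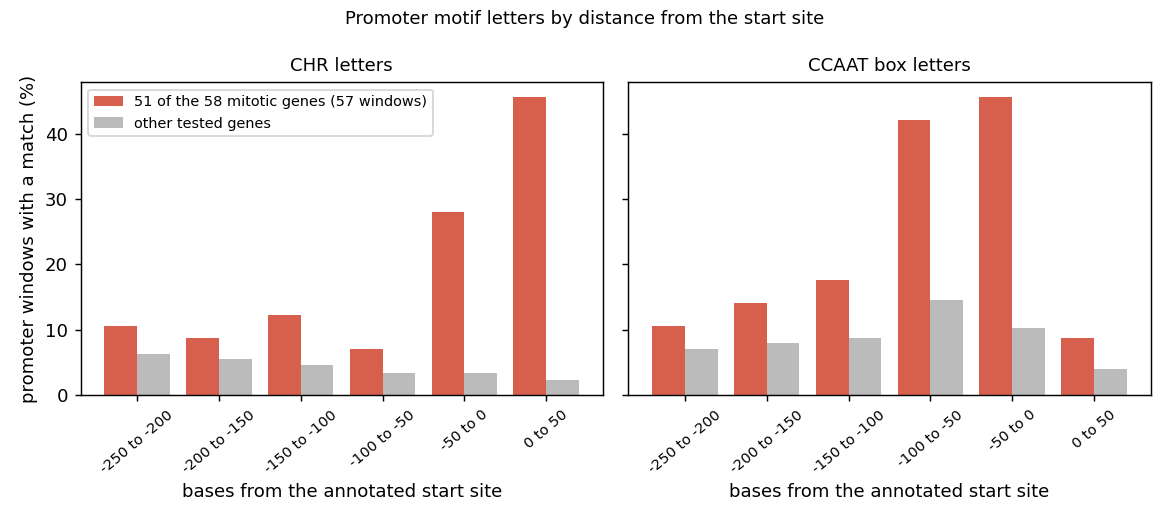
Share of promoter windows (y axis, %) in which CHR letters (left) or CCAAT box letters (right) begin in each 50-base step from 250 bases before to 50 bases after the start site (x axis), for the 57 windows of the mitotic genes (red) and those of other tested genes (grey). The mitotic genes peak at 45.6% just after the start for CHR letters and at 45.6% just before it for CCAAT.

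Letters that pair with the seed of miR-216a-5p (TGAGATT, bases 2 to 8, or the 7-base site opposite an A) were found in the longest annotated 3′ UTR of 4 of the 58 genes, Bub3, Cdk1, Pttg1 and Tpx2, each with 1 site. That is 6.90% (exact Clopper-Pearson interval 1.91 to 16.7%), against 18.2% of 15062 other tested genes, whose 3′ UTRs were longer (median 1373 bases, against 661 bases for the 58). The longest kind of site, pairing with the seed and an A beside it, was in 0 of the 58, an interval of up to 6.16%, and in 3.52% of the others. The log2 fold changes of the 4 were -0.40 for Bub3, -1.26 for Cdk1, 0.01 for Pttg1 and -1.07 for Tpx2.

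Some of these genes have processed pseudogenes, and reads were shared out between copies by the authors' software. Stretches of 31 bases were taken from 1 transcript of each gene, the one with the most reads. For 15 of the 58 over 5% of them also occurred in a transcript of another gene. Ccnb1 led at 46.9% (its pseudogene Ccnb1-ps shared the most), followed by Cdc20 at 27.4%, Mybl2 at 25.3% and Ube2c at 18.7%. The values of these genes are less certain, and other transcripts of each gene were not searched. In 25 of the 58 no stretch of that transcript was shared, among them Cdk1, Bub1, Aspm and Anln, and these include both clear separations and overlaps.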

How the data were processed

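Per the labels' protocols, RNA of 6 pancreata was sequenced after stranded mRNA preparation; per the submitters' processing notes bcl2fastq, Salmon 0.13.1, DESeq2 1.24.0 and mm10 were used. The deposited transcript tables hold estimated counts and TPM, per the file headers; the deposited gene table of the authors holds scaled signal values, used as an alternative. The estimated counts of 115995 of 116248 transcripts, matched to GENCODE M21 (GRCm38), were summed per gene and rounded; 0.0341 to 0.0458% of reads stayed unmatched. Genes passing filterByExpr were fitted with edgeR 4.0.16 (TMM, quasi-likelihood, R 4.3.3) on all 6 libraries, with Benjamini-Hochberg adjustment; DESeq2 1.42.0 and limma 3.58.1 served as alternatives. The fits were also run on simulated data with known changes, drawn gene by gene with the same dispersion in both groups. The mitotic genes spread more among KO than WT libraries, so that run cannot decide between the differing calls. Members and lists were chosen with earlier results of these data known. Per-library values are given for up to 3 genes per role with the smallest p, the gene with the largest p, and Mki67, Cdk1, Bub3 and Anln; of other lists, up to 2 genes with the smallest p are named. Other genes and the Pttg1 promoter were named after their values were seen. With 3 libraries a group, the edgeR p-values set the KO to WT difference against the variation between these mice, estimated with information shared over genes. Intervals of motif shares cover counting error only.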

Additional observations from a re-analysis of the deposited data

How the results depend on the processing

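The median log2 fold change of the 58 genes kept its sign under the 17 alternatives of the fit, from -0.96 without KO 3 to -1.74 without KO 1. The adjusted calls did not hold steady. Genes lower over the whole table numbered 0 as reported, 292 with DESeq2, 1 each with no filter, with limma-voom and without KO 2 and WT 1, and 0 to 275 when 1 library was left out; genes higher numbered 0, and 127, 1 (limma-voom), 1 (without KO 2 and WT 1) and 0 to 87. Of the 58, 36 were lower with DESeq2, 0 with limma-voom and 0 to 56 when 1 library was left out, 56 being without KO 1; the cause was not tested. At an unadjusted p, 54 became 31 without KO 2 and WT 1, where 4 libraries were left, and 45 to 57 when 1 library was left out. For these reduced fits the share of all tested genes at that p was not taken. Of 493 alternative values for the 29 genes given by library, 444 kept direction and side of the threshold, 41 gained a call (14 with DESeq2, 27 without KO 1) and 8 turned sign, all of Pttg1: -0.0118 with upper-quartile factors, -0.0281 with a length offset, -0.0195 in the authors' deposited table, -0.111 without KO 2 and WT 1, -0.0381 with an erythroid covariate, and -0.0985 to 0.0807 when 1 library was left out. The median level was 12.05 TPM over protein-coding transcripts, a choice made after the data were seen, against 14.8 TPM over all. CHR letters were in 68.6% of genes as TTTGAA alone, against 82.4%, and seed matches in 0% as the longest site, against 6.90%. No paired analysis was possible because the labels give the KO and WT mice separate donor numbers. The number of libraries, 3 a group, limits the precision; the part of depth was not tested.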
